A study of Macaca mulatta with 102 samples.

Results

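Messenger RNA from rhesus macaque mammary biopsies (Bx), pelleted milk cells (Cells) and the milk fat layer (Fat) was compared, and the transcripts described here are those present in both Bx and Cells but at least 3 times lower in Fat. Of 42701 annotated transcripts, 90 met the selection: a locus spanning more than 1000 bases, mean levels of at least 3 FPKM (fragments per kilobase of transcript, scaled to the mapped fragments of the library) in Bx and in Cells, both means at least 3 times the Fat mean, and Bx and Cells means within 3-fold of each other. The 90 members were thus chosen by their measured means in Bx, Cells and Fat, so their levels in Bx, Cells and Fat are given as a description without a test. The same span and minimum means, at any Fat level, were met by 6708 transcripts, which serve as the background below.

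The animals were 6 lactating macaque mothers (M1 to M6), prime-aged, with earlier pregnancies and nursing male infants, and no group had received a treatment other than the milking and biopsy procedures, for which oxytocin and sedation were used. Milk was collected at days 30 and 90 post-partum and centrifuged into a fat layer and a washed cell pellet, giving 12 Cells samples (6 at each day) and 10 Fat samples (M1, M2, M3 and M6 at day 30, all 6 animals at day 90). Each animal had 1 core biopsy, M3, M4 and M6 at day 30 and M1, M2 and M5 at day 90. Biopsies followed the milk collection of the same day. The day-90 milk of M3, M4 and M6 thus came after a biopsy, and that of M1, M2 and M5 did not. The labels also name 5 FatS10 samples (M1, M2, M4, M5 and M6, with M4 spelled FatsS10) and 1 Skim10m sample (M3), all from day 90. The study describes cell-free milk from that day, but the labels do not state that FatS10 and Skim10m are those samples, so the label names are kept. FatS10 took no part in the selection. The paper reports lower RNA integrity in macaque milk fat than in milk cells or mammary tissue. Some day-30 milk RNA was judged too poor to sequence. The integrity of each sample is not given in the sources used here, and its part in the low Fat levels was not tested. Each sample was sequenced in 3 runs, which were averaged. The FPKM values of a sample summed to between 909562 and 1380850 over all transcripts; the read depth behind each value is unknown.

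Milk fat is secreted as lipid droplets wrapped in the apical membrane of the secretory epithelium, and some droplets carry a crescent of that cell's cytoplasm, so RNA of the fat layer comes largely from cells that are making milk. The milk cell pellet holds leukocytes together with shed epithelial cells, and a core biopsy holds epithelium, stroma, fat and vessels. In such bulk samples, fewer cells of a type and less RNA per cell cannot be told apart. The tables used here do not pair the files' transcript identifiers with gene symbols, so members are named by identifier and by their rheMac2 position as the file gives it, their protein products and roles are not stated, and the labelled cell types could not be checked against marker genes. No sequence of that genome build was used.

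Across the 90 members the median of the sample-type means was 7.23 FPKM in Bx, 6.92 in Cells, 1.004 in Fat, 2.50 in FatS10 and 1.18 in Skim10m. The members were therefore mostly of low abundance, with the lower of the Bx and Cells means under 10 FPKM for 72 and at 20 or more for 8. That lower mean was a median of 4.64 times the Fat mean (interquartile range 3.64 to 8.09), while over the background it was 0.757 times the Fat mean. For 50 members the ratio lay between 3 and 5, for 40 it was at least 5, for 20 at least 10 and for 14 at least 20. Bx exceeded Cells for 53 members and Cells exceeded Bx for 37. All 10 Fat samples lay below all 6 Bx samples for 56 members, against 6.56% of the background, and below all 12 Cells samples for 16 members, against 0.76%; the selection favours both counts.

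**Figure D1:**
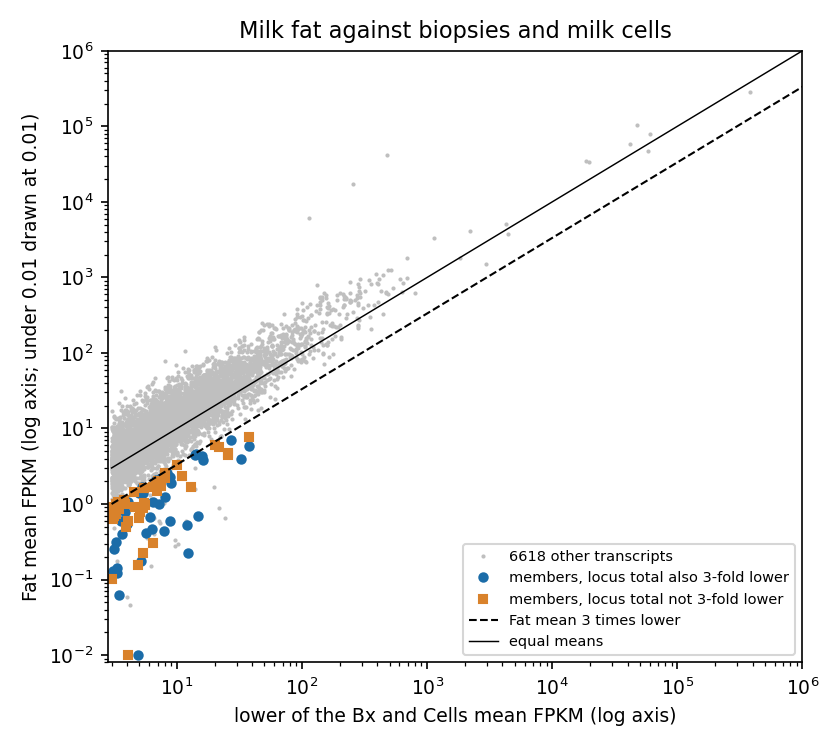
Mean FPKM in Fat against the lower of the Bx and Cells means for the 6708 background transcripts, both on log axes, with the 90 members coloured by whether the summed FPKM of their locus was also at least 3-fold lower in Fat (circles) or not (squares). The members lie below the dashed 3-fold line, mostly at lower means under 10 FPKM, and grey points below that line differed by more than 3-fold between Bx and Cells.

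The members lay at 86 loci, a locus being a chain of transcripts that overlap on a chromosome regardless of strand. They were spread over 18 chromosomes, with 15 on chromosome 1, 4 on X and none on 6, 17 and 18. The median span was 18859 bases, close to the 18941 bases of the background, and ranged from 1631 to 387446 bases. A member was the only annotated transcript of its locus in 20 cases (22.2%), compared with 37.1% of the background.

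Because 70 members shared their locus with other transcripts, the FPKM of all transcripts of a locus were summed. The sum divided the members evenly. For 45 members the locus total was also at least 3 times lower in Fat than in both Bx and Cells (20 of these stood alone at their locus), and these are called locus-wide below. For the other 45 members the locus total was not 3 times lower in Fat, so the 3-fold difference was met by the transcript model and not by its locus; these are called single-model. Summing only the transcripts that overlap the member itself gave the same 45 and 45. For 25 of the single-model members the locus total in Fat was as high as, or higher than, the lower of Bx and Cells, and for the other 20 it was lower, in 7 cases at least 2-fold and at most 2.72-fold. This division was made after the values were seen and uses the same sample types as the selection. No gene map was used, so a locus may join different genes. ENSMMUT00000017181, for example, shared its locus with 118 other transcripts.

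The single-model members made up a median of 30.99% of their locus in Bx, 23.6% in Cells, 4.89% in Fat and 15.2% in FatS10. The median ratio of the lower locus total of Bx and Cells to that of Fat was 0.910 for single-model members and 5.96 for locus-wide members, beside 0.762 over the background. For 23 of the 45 single-model members the most abundant other transcript of the locus in Fat was higher in Fat than in both Bx and Cells, for 12 it was lower than in both, and for 10 it lay between.

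The most abundant member, ENSMMUT00000018187 (chr9:65146225-65182818, 6 transcripts at the locus), was single-model. Its levels in the 6 biopsies were 39.8, 54.6 and 48.1 FPKM at day 30 and 37.6, 37.6 and 53.1 at day 90, its 12 Cells samples ran from 11.6 to 75.7 with a median of 34.2, and its 10 Fat samples ran from below 0.01 to 21.1 with a median of 6.16. In FatS10 it was at 20.96, 9.78, 25.6, 34.3 and 20.6 FPKM in M1, M2, M4, M5 and M6. All biopsies lay above all Fat samples, whereas Cells and Fat overlapped. The neighbouring model ENSMMUT00000042830 averaged 81.1 FPKM in Bx, 89.96 in Cells, 68.2 in Fat and 73.9 in FatS10, so the locus total of 76.1 in Fat was 1.66 times below the lower of the totals in Bx and Cells. The member's share of the locus fell from 35.7% in Bx and 29.5% in Cells to 10.1% in Fat.

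The second most abundant member, ENSMMUT00000012465 (chr1:132053345-132054976), had no other transcript at its locus. It was at 26.1, 47.8 and 34.9 FPKM in the biopsies of day 30 and at 46.3, 53.7 and 26.1 in those of day 90. Its Cells samples ran from 4.08 to 176 FPKM with a median of 17.4, and its Fat samples from 1.25 to 17.5 with a median of 4.85. FatS10 held 5.53, 6.34, 4.40, 2.17 and 2.45 FPKM, within the range of Fat. The high Cells mean of 37.6 ± 49.7 FPKM (SD, n = 12) rested on M2, whose 2 Cells samples were at 176 and 75.01 FPKM, and on M5 at day 30 with 71.6 FPKM. The other 9 Cells samples were at 26.4 FPKM or less.

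The members with the lowest Fat means were close to absent from all 30 Fat runs. ENSMMUT00000012963 (chr7:169046291-169359348, 11 transcripts at the locus, locus-wide) was listed below 0.01 FPKM in every Fat and FatS10 sample. It was at 2.32, 5.71 and 8.17 FPKM in the biopsies of day 30 and at 0.862 and 19.9 in those of M2 and M5 at day 90, with M1 below 0.01. Its Cells mean of 4.84 FPKM came from 3 samples, M2 at day 30 with 3.69, M5 at day 30 with 2.77 and M5 at day 90 with 51.6, and the other 9 were below 0.01. These levels are means of runs, some of which disagreed. The runs were 0, 11.3 and 13.2 FPKM in the biopsy of M6, but 42.7, 49.6 and 62.5 in Cells of M5 at day 90. The summed locus averaged 162 FPKM in Bx, 37.9 in Cells, 1.49 in Fat and 1.57 in FatS10. The locus total was thus lower in Fat by more than the selection asked, although this transcript alone met the Cells threshold through 1 sample.

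ENSMMUT00000043351 (chr9:6040539-6087286, 5 transcripts at the locus, single-model) was also below 0.01 FPKM in all Fat runs. Its biopsies ran from below 0.01 to 23.7 FPKM with a median of 5.90, and its Cells samples from below 0.01 to 15.1 with a median of 2.996. In FatS10 it was at 0.107 FPKM in M1, 2.90 in M4 and 2.34 in M6 and below 0.01 in M2 and M5. These levels are means of runs that often disagreed. The runs of M4 were 0.00107, 0.409 and 8.29 FPKM in FatS10 and 0.00178, 9.99 and 13.5 in the biopsy. In Cells of M4 at day 30 they were closer, at 11.5, 14.4 and 19.5. The locus total was 80.3 FPKM in Bx, 117 in Cells, 121 in Fat and 124 in FatS10. Here the locus was as abundant in Fat as in Cells, and 1 of its models received almost none of it.

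The runs of a sample measure the same library, and their spread differed between the 2 kinds of member. In Fat, the median coefficient of variation between the 3 runs was 76.7% for single-model members and 37.1% for locus-wide members, beside 7.12% over the background. In Cells it was 23.4% and 12.7%, beside 7.45%, and in Bx 19.2% and 11.02%, beside 8.397%. In 92 of the 450 combinations of a single-model member and a Fat sample (20.4%), 1 run listed the transcript below 0.01 FPKM and another at 1 FPKM or more. The same occurred in 17 of 450 combinations for locus-wide members (3.78%) and in 1.24% over the background. For single-model members it also occurred in 12.8% of combinations in Cells, 8.15% in Bx and 11.6% in FatS10. The background shares there were 0.919%, 1.51% and 0.874%. The level of many single-model members was therefore not repeatable within a library, most often in Fat but also in the other sample types. The part of this spread in their low Fat means and in their other means was not tested. The 2 kinds had similar Fat levels, with medians of 1.07 FPKM for single-model and 0.997 for locus-wide members. The background median in Fat was higher, at 10.6 FPKM, so the spreads of members and background are not compared at a like level. The part of the low level in the wider spread was not tested.

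**Figure D2:**
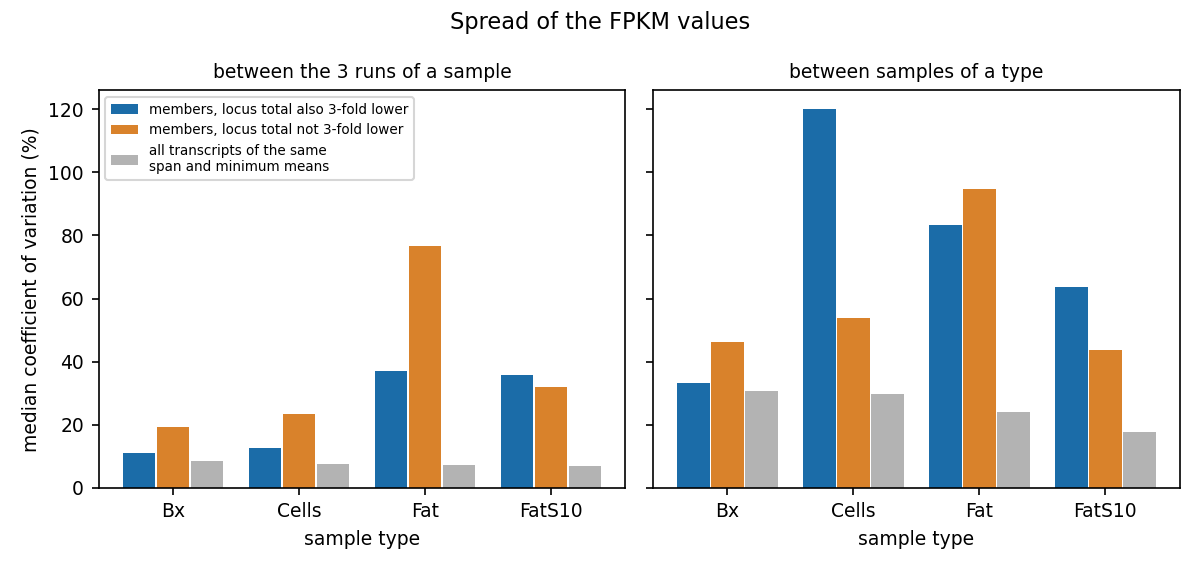
Median coefficient of variation in percent, between the 3 runs of a sample (left) and between the samples of a type (right), for locus-wide members, single-model members and the background in Bx, Cells, Fat and FatS10. The bar for single-model members between runs of Fat stands at 76.7%, and that for locus-wide members between Cells samples at 120%.

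Between samples of a type, the median coefficient of variation of locus-wide members was 120% in Cells and 83.5% in Fat, and that of single-model members 53.7% in Cells and 94.9% in Fat. The members' FPKM summed to 751 to 1121 in the 6 biopsies, to 335 to 2573 in the 12 Cells samples, to 70.6 to 215 in Fat and to 258 to 395 in FatS10. M2 stood apart with 2573 FPKM at day 30 and 1521 at day 90, while the other 10 Cells samples did not exceed 1046. The difference held within the sequencing pool that M2 shared with M1, whose Cells samples summed to 634 and 485 FPKM. For 33 members (36.7%) the 2 M2 samples were the highest of the 12 Cells samples, beside 19% of the background. The locus-wide members carried this difference. Their median level in Cells of M2 was 29.7 FPKM at day 30 and 12.9 at day 90, against 1.47 to 11.6 in the other animals, and 31 of the 45 were at least 3 times higher in M2 than in the mean of the others (median ratio 4.72). For single-model members the median ratio was 1.58 and 9 of 45 reached 3, beside a median of 1.29 and 3.47% over the background.

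The milk cells of M2 entered the Cells means that chose the members. Without M2, the selection gave 63 transcripts, of which 47 were among the 90, and 43 members were lost, 22 of them locus-wide and 21 single-model. The Cells median of the locus-wide members went from 7.25 to 5.16 FPKM and their median ratio of the lower mean to Fat from 6.08 to 3.93, while the ratio of single-model members went from 4.30 to 3.47. In the other samples of M2 the locus-wide members were also at the upper end: their median was 2.05 FPKM in Fat of day 30, 0.936 in Fat of day 90 and 1.03 in FatS10, where the other animals had 0.367 to 0.912 in Fat and 0.541 to 0.820 in FatS10. In the biopsy of M2 the median was 6.33 FPKM, within the 5.15 to 9.97 of the other biopsies. Transcripts chosen for Cells means at least 3 times Bx and Fat, 230 in number, had a median M2 ratio of 10.6. M2 entered those Cells means, so that choice favours a high M2 ratio. The 529 transcripts chosen for Bx means at least 3 times Cells and Fat had a median M2 ratio of 1.63.

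**Figure D3:**
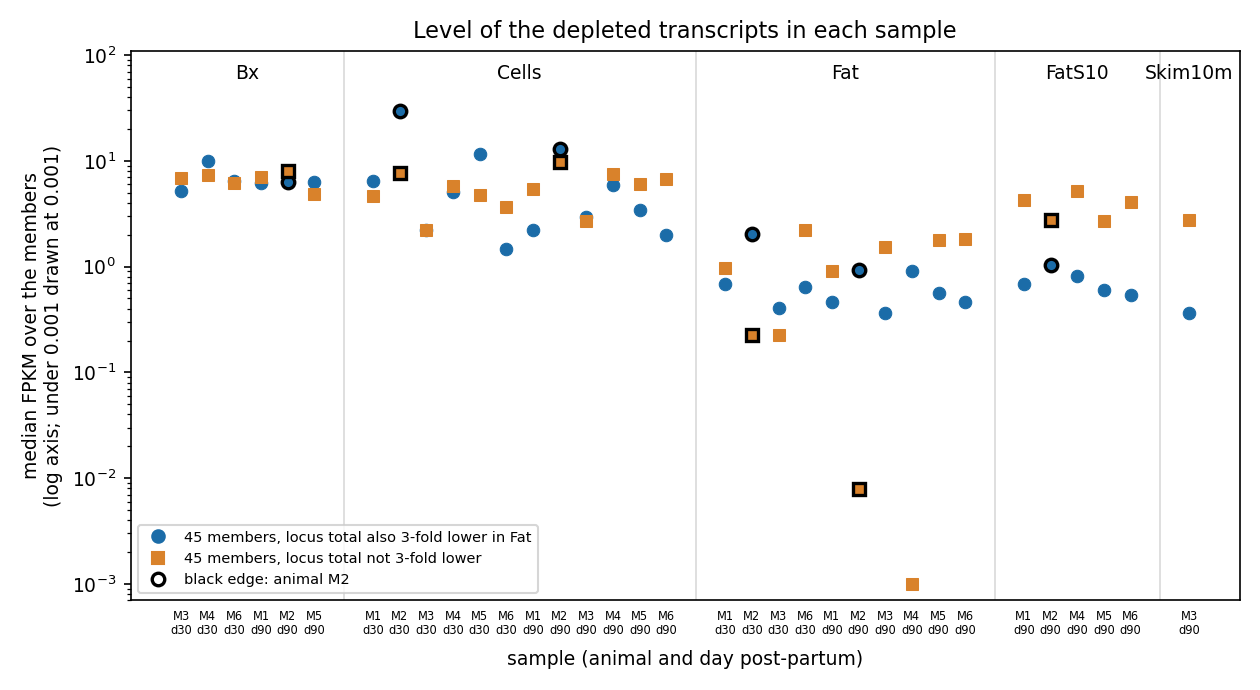
Median FPKM over the 45 locus-wide members (circles) and the 45 single-model members (squares) in each of the 34 samples, on a log axis, with black edges for M2 and values under 0.001 drawn at 0.001. Locus-wide members are highest in Cells of M2 and remain at 0.361 to 1.03 FPKM in FatS10 and Skim10m, while single-model members reach 2.69 to 5.17 FPKM in FatS10 and drop to near 0 in Fat of M2 and M4 at day 90.

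Within Fat, the 2 kinds followed different samples. The median level of single-model members was 0.918 to 2.22 FPKM in 6 of the 10 Fat samples, and lower in the other 4: 0.226 in M2 and 0.228 in M3 at day 30, and 0.00785 in M2 and below 0.01 in M4 at day 90. In the Fat samples of M2 and M4 at day 90, 27 and 24 of the 45 single-model members were below 0.1 FPKM, whereas 4 and 5 of the locus-wide members were. The background was below 0.1 FPKM for 0.835% and 1.07% of its transcripts in those 2 samples and for 0.313% to 0.835% in the other 8. In the same 2 samples the locus totals of the single-model members had a median of 1.19 and 0.897 times the lower of their Bx and Cells means, and 27 and 19 of the 45 loci were at or above that mean. At the others the locus total was lower too, by 3-fold or more at 1 and 3 loci.

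In FatS10 the 2 kinds parted. Single-model members had a median of 4.12 FPKM in the FatS10 means, 3.44 times their Fat level and 0.682 times their Cells level. Of these 45 members, 42 were higher in FatS10 than in Fat, 28 at least 3-fold, beside 3556 and 36 of the 6708 background transcripts. The Fat and Cells values in these ratios also chose the members and divided the 2 kinds. The selection favours a higher ratio to Fat and a lower ratio to Cells, so the ratios are given as a description. Locus-wide members had a median of 0.698 FPKM in FatS10, 0.999 times their Fat level and 0.0985 times their Cells level (1.23 and 0.201 times without M2), with 22 of 45 above Fat and 1 at least 3-fold. Over the background the ratio of FatS10 to Fat had a median of 1.02 and that of FatS10 to Cells 1.08. In all these ratios the Fat and Cells means cover both days and include M3, whereas FatS10 was from day 90 and without M3. Across the 90 members, the FatS10-to-Fat ratio ran against the M2 ratio in Cells (Spearman's rho −0.727) and against the locus ratio of the lower of Bx and Cells to Fat (rho −0.748). The members share the same libraries, and the first of these rho values was −0.0165 over the background. No background value of the second was computed, and both of its ratios hold Fat values. Fat and the Cells of M2 entered the selection, so both rho values are a description.

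**Figure D4:**
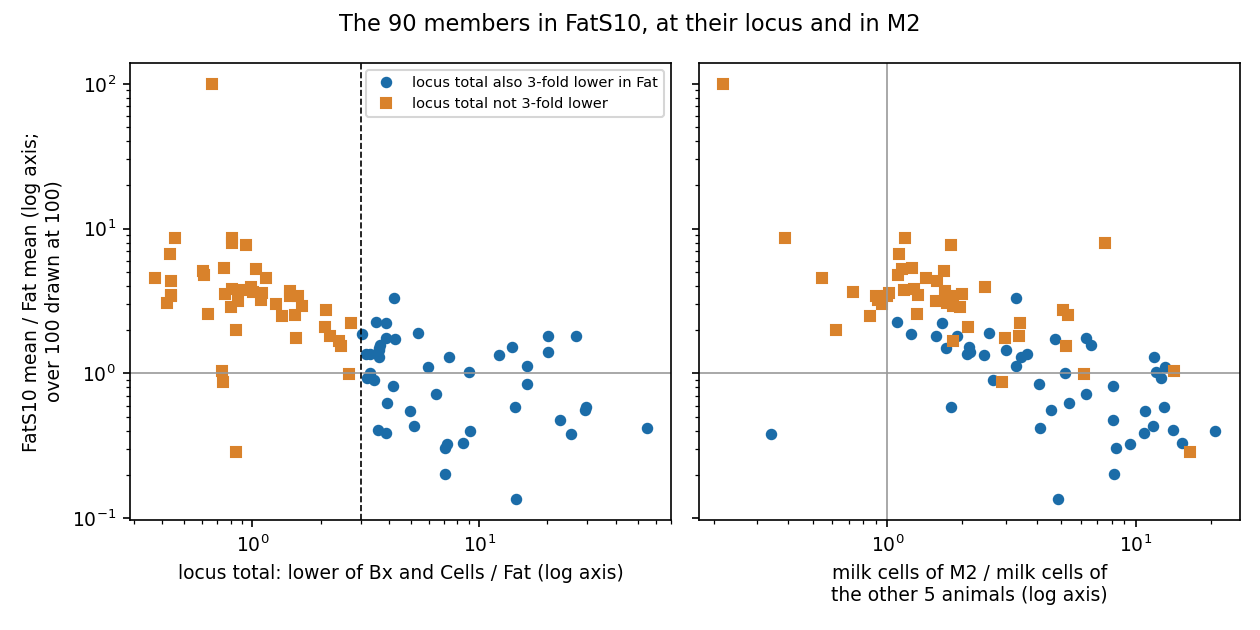
Ratio of the FatS10 mean to the Fat mean for each of the 90 members, against the ratio of the lower locus total of Bx and Cells to that of Fat (left) and against the ratio of Cells in M2 to Cells in the other 5 animals (right), all on log axes with values over 100 drawn at 100. Single-model members (squares) sit mostly above 1 on the vertical axis with a median of 3.44, and locus-wide members (circles) around a median of 0.999.

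Within animals at day 90, the median level of single-model members was higher in FatS10 than in Fat in 5 of 5 animals, at 4.28 against 0.918 FPKM in M1, 2.79 against 0.00785 in M2, 5.17 against less than 0.01 in M4, 2.69 against 1.79 in M5 and 4.11 against 1.81 in M6. The median of locus-wide members moved little, at 0.690 against 0.467, 1.03 against 0.936, 0.820 against 0.912, 0.603 against 0.564 and 0.541 against 0.468 FPKM. FatS10 exceeded Fat in each of the 5 animals for 28 of the 45 single-model and 13 of the 45 locus-wide members, against 24.3% of the background. For locus-wide members that share was near the background share. All 10 Fat samples lay below all 5 FatS10 samples for 8 members, 6 of them single-model, against 2.67%. These Fat values also chose the members for their low Fat level, so the selection favours both counts. In M3, which had no FatS10 sample, Skim10m exceeded Fat of the same day for 35 single-model and 29 locus-wide members, against 55.9% of the background, with these Fat values among those that chose the members.

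FatS10 was compared with Fat of the same 5 animals at day 90 by limma on log2(FPKM + 1) over the 12841 transcripts with a mean of at least 1 FPKM in these samples, which 56 members reached. A Benjamini-Hochberg adjusted p under 0.05 was found for 27 of the 56 with a higher FatS10 level and for none with a lower one, against 8.57% of all transcripts tested for higher and 12.4% for lower. Of these 27 members, 21 were single-model and 6 locus-wide, and 12 were more than 3-fold higher on that scale, all of them single-model, where 0.179% of all transcripts did. The remaining 34 members fell under the minimum mean, 27 of them locus-wide, and a member with little Fat signal passes it mainly through FatS10, so these counts lean towards higher values. The Fat values compared here also chose the members for their low Fat level, so the counts describe the members and nothing is read from them. Without the minimum mean, 6 of the 90 members passed, against 0.368% of all transcripts. With the animal as a block, 42 members were higher and 1 lower, against 18% and 22.3% of all transcripts. The count of higher members was 26 without M5, where 8.73% of all transcripts were higher, and 0 without M1, M2, M4 or M6, where 0% to 0.00782% were. The median log2 difference over the members tested stayed between 0.82 and 1.05 in these 5 fits.

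ENSMMUT00000011563 (chr9:28625732-28713095, single-model) had the largest such difference. Fat of day 90 held 2.87, 0.356, 0.147, 7.28 and 9.99 FPKM in M1, M2, M4, M5 and M6, and FatS10 held 27.3, 14.5, 31.7, 13.1 and 28.9. The groups did not overlap, and FatS10 lay near the Cells mean of 25.7 FPKM. The log2 difference was 2.58, given as a description since Fat values chose the member, and the locus total was 116 FPKM in Fat and 161 in FatS10. ENSMMUT00000029706 (chrX:49568391-49571397, single-model) was at 0.818, 0.405, 0.108, 0.746 and 1.72 FPKM in Fat and at 11.6, 6.00, 11.6, 4.17 and 11.3 in FatS10. Its log2 difference was 2.37, while its locus total went from 66.7 FPKM in Fat to 59.3 in FatS10. For both transcripts the log2 difference was 2.08 or more with any 1 of the 5 animals left out.

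**Figure D5:**
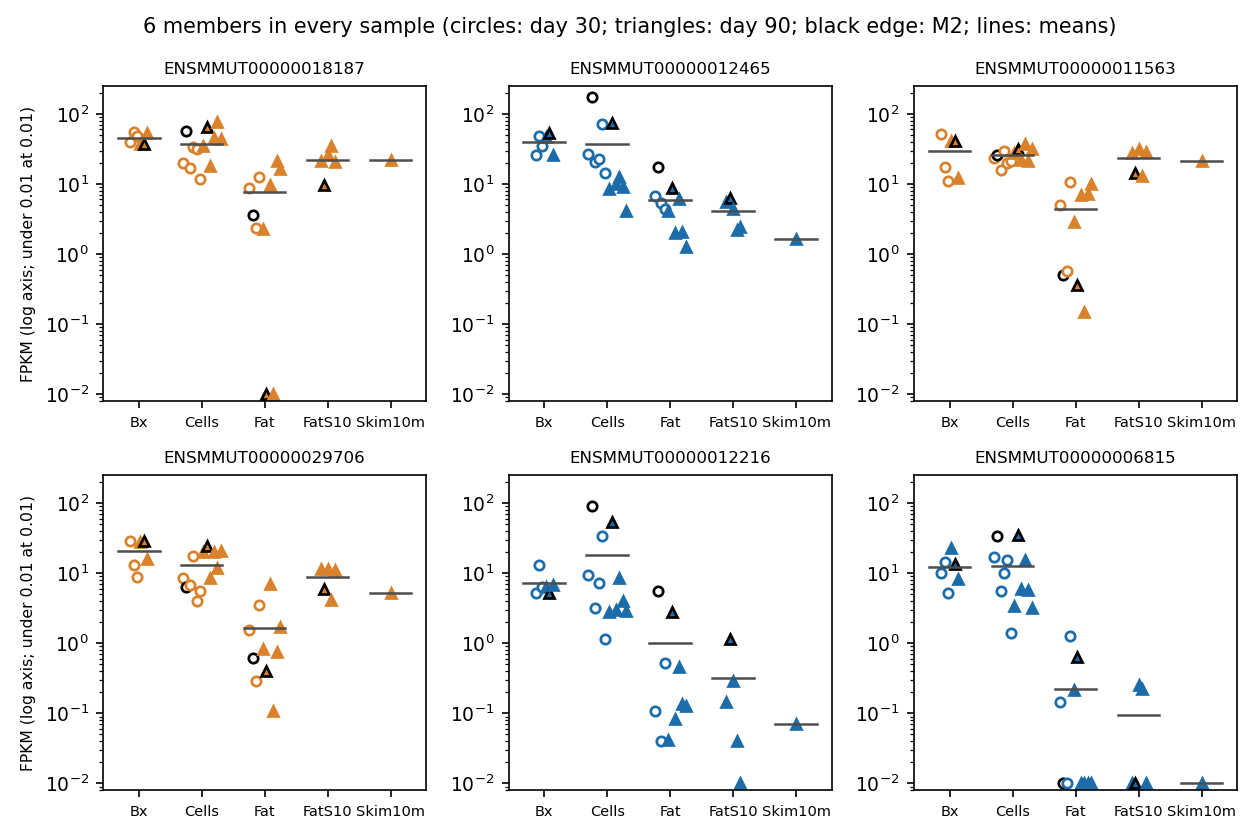
FPKM on a log axis in each sample for 6 members, by sample type, with open circles for day 30, filled triangles for day 90, black edges for M2, horizontal lines for means and values under 0.01 drawn at 0.01. ENSMMUT00000011563 and ENSMMUT00000029706, named for the largest rises of FatS10 over Fat, had FatS10 means of 23.1 and 8.93 FPKM. ENSMMUT00000012216 and ENSMMUT00000006815, named for the largest falls of FatS10 below Cells, had FatS10 means of 0.322 and 0.0944 FPKM, at the Fat level or under it. The contrast between these panels follows from that choice.

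When the FPKM of each locus were summed before the same test, 10 of the 66 member loci tested were higher in FatS10 than in Fat and 7 were lower, none by more than 3-fold, against 11.8% and 14.3% of all 9605 loci. The shares of member loci that passed were thus near those of all loci in both directions. The Fat values compared here also chose the members, so nothing is read from these counts. The median log2 difference was 0.10 over the 66 member loci tested, beside 1.04 over the smaller set of 56 members tested as transcripts.

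Against Cells of the same animals and day, FatS10 was lower for 24 of the 88 members tested and higher for none at an adjusted p under 0.05 (limma), where 1.55% of all 13579 transcripts tested were lower and 2.63% higher. Locus-wide members made up 19 of the 24 and single-model members 5, and 11 were more than 3-fold lower (0.272% of all, with 0.0442% higher by as much). The median log2 difference was −1.16 over locus-wide and −0.67 over single-model members, beside 0.04 over all transcripts tested. The Cells values compared here also chose the members for their high Cells level, so these counts too are a description from which nothing is read. With the animal as a block 45 members were lower, 27 locus-wide and 18 single-model, against 9.46% of all transcripts. The count of lower members was 14 without M1, 4 without M2, 1 without M4, 2 without M5 and 2 without M6, fits in which 0.0147% to 0.504% of all transcripts were lower, and the median log2 difference over the members tested ran from −1.07 to −0.75. All 5 FatS10 samples lay below all 12 Cells samples for 11 members, 10 of them locus-wide, against 0.373% of the background.

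ENSMMUT00000006815 (chr16:31145086-31153385), alone at its locus, had the largest difference. Its Cells levels at day 90 were 3.42, 35.2, 15.4, 5.75 and 3.24 FPKM in M1, M2, M4, M5 and M6, and its FatS10 levels were 0.253 in M4, 0.219 in M5 and below 0.01 in the other 3. The groups did not overlap, and the log2 difference was −3.05, given as a description since Cells values chose the member. In its 6 biopsies it was at 5.18 to 22.6 FPKM, and in the 10 Fat samples at 1.25 or less. ENSMMUT00000012216 (chr1:33497403-33522381), also alone, was at 2.83, 53.6, 8.57, 4.07 and 2.86 FPKM in Cells and at 0.145, 1.14, 0.290, 0.0410 and below 0.01 in FatS10. Its log2 difference was −2.66, and M2 was highest in Cells (90.4 FPKM at day 30), in Fat (5.64) and in FatS10. Without M2 the differences were −2.58 and −2.20.

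Time in lactation was compared within each sample type, a difference the selection did not use. The day-90 milk of M3, M4 and M6 came after their biopsy, and the part of this in the day differences was not tested. In Cells, 4 of the 90 members were higher at day 90 than at day 30 and none was lower at an adjusted p under 0.05 (limma, 6 animals a day), against 3.55% and 1.31% of the 13815 transcripts tested, so the share of members was close to that of all transcripts. All 4 were single-model, and none exceeded 3-fold on the log2(FPKM + 1) scale, where 0.0796% of all transcripts did so upwards and 0.0145% downwards. With the animal as a block, 14 members were higher, all single-model, and 8 were lower, 7 of them locus-wide, against 11.5% and 13.7% of all transcripts. The count of higher members was 12 without M3, where 11.7% of all transcripts were higher, 1 without M4, where 0.600% were, and 0 without M1, M2, M5 or M6, where 0% were. Day 90 exceeded day 30 in each of the 6 animals for 12 single-model members and no locus-wide member, against 7.01% of the background, and was lower in each for 5 locus-wide members, against 24.6%. The median log2 difference was 0.23 over single-model and −0.44 over locus-wide members, beside −0.04 over all transcripts.

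ENSMMUT00000027611 (chr7:85957562-86016499, single-model) rose in Cells of 6 of 6 animals. Its levels were 2.18, 0.592, 0.841, 2.49, 0.623 and 1.51 FPKM in M1 to M6 at day 30 and 6.13, 3.96, 1.32, 14.1, 4.78 and 7.71 at day 90. The days overlapped slightly through M3, and the log2 difference was 1.46 (SE 0.36, limma adjusted p = 0.0427). ENSMMUT00000017492 (chr1:46453573-46532959, single-model) was at 3.18, 3.22, 1.93, 9.23, 4.72 and 3.55 FPKM at day 30 and at 13.8, 11.6, 2.79, 10.5, 18.2 and 13.2 at day 90. It was higher at day 90 in 6 of 6 animals, with a log2 difference of 1.25 (SE 0.33, limma adjusted p = 0.0486), while M3 of day 90 lay below M4 of day 30. In this fit without the animal as a block, leaving out any animal other than M3 put both adjusted p values above 0.05. With the animal as a block and all 6 animals, the limma adjusted p values were 0.011 and 0.0146.

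In Fat, 47 members had a mean of at least 1 FPKM and none passed between the days (limma, 4 samples at day 30 and 6 at day 90), as did none of the 12609 transcripts tested (0%). At an unadjusted p under 0.05, 0 of these members were higher and 1 was lower at day 90, against 3.69% and 1.86% of all transcripts, and with the animal as a block 0 members passed in either direction, against 0.0159% of all transcripts in each. Day 90 exceeded day 30 in each of the 4 animals with both days for 3 members, against 4.41% of the background, and was lower in each for 18, against 22.8%. In Bx, none of the 90 members passed (limma, 3 animals a day with no animal in both), again as none of the 13762 transcripts tested (0%), with 5 higher and 1 lower at an unadjusted p under 0.05, against 1.81% and 1.42% of all transcripts. The median log2 difference over members was −0.06 in Fat and 0.12 in Bx, beside 0.02 over all transcripts in both. Changes of the members with day were therefore not detectable in Fat and Bx at these sample numbers.

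At the selection threshold, the members just inside had lower means of 3.04 and 3.12 times their Fat mean. ENSMMUT00000041627 (chr16:48732951-48735081, single-model) averaged 14.03 FPKM in Bx, 10.04 in Cells and 3.30 in Fat, and ENSMMUT00000023171 (chr2:130499244-130511720, locus-wide) 8.78, 5.23 and 1.67. The nearest transcripts outside were ENSMMUT00000005299 (chr19:10444697-10455384) at 6.16, 4.96 and 1.66 FPKM with a ratio of 2.99 and ENSMMUT00000025325 (chr14:128172490-128208500) at 22.2, 10.2 and 3.45 FPKM with a ratio of 2.97. The SDs in Fat of the members inside were 1.53 and 0.49 FPKM (n = 10), larger than the shift of the Fat mean that would carry either across the threshold.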

How the data were processed

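Poly(A) RNA libraries (TruSeq) were sequenced as single 100-base reads on an Illumina HiSeq. The authors trimmed reads with Scythe and Sickle, checked them with FastQC, mapped them to rheMac2 with Bowtie and TopHat, and used Cufflinks to obtain a level for each Ensembl transcript; versions are not given in the sources used here. The deposited values are FPKM, which depend on how reads are shared among overlapping transcripts, and read counts were not used here. Of the table's columns, 102 were used, 3 runs for each of 34 samples, and 6 columns that no label matched were left out. No 2 runs held identical values.

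The members, the lists and the comparisons were chosen with earlier results of these data known. Runs were averaged. Tests used limma 3.58.1 (R 4.3.3) with a trended prior on log2(FPKM + 1) after median-of-ratios scaling, over transcripts with a mean of at least 1 FPKM, two-sided, with Benjamini-Hochberg adjustment; fold changes on this scale understate those of low transcripts. The scripts were tested on simulated data. Animals pair the samples by their labels, and every pair's deviations from the group means correlated (lowest 0.233). The study compared days without pairing, so the block is given beside. The named transcripts are the 2 lowest in Fat, the 2 most abundant, the 2 nearest each side of the threshold, and, for each comparison, the 2 largest changes in each direction that passed; the mean level of the overlapping model ENSMMUT00000042830 was added after its values were seen. An animal's milk samples were all sequenced in the same pool of libraries, so the milk comparisons lie within pools; the biopsies of the 2 days shared 1 pool, with too few samples for a value within it. Fold thresholds, minimum means, scaling, the pseudocount, locus sums and each animal left out were tried as alternatives.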

Additional observations from a re-analysis of the deposited data

Results flagged for a closer look

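For the members' sum and the 6 named members at the extremes and just inside the threshold, 49 groups of 4 to 10 samples were searched for a sample whose gap to its neighbour took up most of the group's range, and 10 were found. The nominal rate of 1 in 20 groups was not computed for these data. The groups overlap, share libraries and hold members chosen for their values, so nothing is read from the count. The summed level of the members stood apart in Cells of M2 at day 30 (2573 FPKM). The same animal stood apart for ENSMMUT00000012465 in Cells at day 30 (176 FPKM), in Cells at day 90 (75.01 FPKM) and in Fat at day 30 among all 10 Fat samples (17.5 FPKM), and for ENSMMUT00000023171 in Cells at day 90 (10.5 FPKM). ENSMMUT00000023171 was also high in FatS10 of M4 (4.51 FPKM). ENSMMUT00000012963 stood apart in Cells of M5 at day 90 (51.6 FPKM), and ENSMMUT00000043351 in Cells of M4 at day 30 (15.1 FPKM). In Fat of M6 at day 30, ENSMMUT00000043351 was listed at 0.00026 FPKM, above the rest both among the 4 samples of that day and among all 10, although every value there was close to 0. No cause of these values was tested.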

How the results depend on the processing

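The number of transcripts selected depended on the thresholds: 220 at a fold of 2, 54 at a fold of 4, 241 at a minimum mean of 1 FPKM, 18 at 10 FPKM and 52 loci when FPKM were summed over overlapping loci; leaving out an animal gave 63 to 111. Medians over samples gave 66, of which 46 were members. The median log2 ratio of Fat to the lower of Bx and Cells was −2.21, and −2.59 with medians over samples, −1.52 with locus sums, −1.56 with sums over directly overlapping transcripts and −2.37 to −2.19 without one animal. The locus sums, added after the values were seen, pool all overlapping transcripts on either strand and may join different genes. The part of the transcript models in this value was not tested.

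For Cells between days, 4 members higher became 0 on FPKM as deposited and 0 without a minimum mean, 14 with the replicate block and 0 to 12 without one animal, and 0 lower became 8 with the replicate block. For FatS10 above Fat, 27 became 6 without a minimum mean, 15 at a minimum of 3 FPKM, 42 with the replicate block, 10 with locus sums, 0 without M4 (whose label is spelled FatsS10) and 0 to 26 without one animal; 0 lower became 1 with the replicate block and 7 with locus sums. For FatS10 below Cells, 24 became 9 on FPKM as deposited, 6 without a minimum mean, 45 with the replicate block, 1 without M4 and 1 to 14 without one animal; 0 higher became 1 with locus sums. The cause of these changes was not tested, the fewer samples without one animal and the larger number of transcripts without a minimum mean included. Between days in Fat and Bx the counts were 0 under every alternative run, the replicate block in Fat included. No named transcript changed direction. Read depth is unknown, and levels under 1 FPKM carry little precision, as the spread between runs shows.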
